A study of Mus musculus with 8 samples.

Results

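The comparison concerns the last step of a series of CTCF-site deletions between the mouse genes Kcnj2 and Sox9, the library labelled ∆CTCF set against the library labelled ∆BorC1-4. These are 2 of the 8 capture Hi-C libraries analysed, each from limb buds of E12.5 embryos. All 10 kb bin pairs with both ends on chromosome 11 from 110920001 to 113030000 (mm9) were taken, 22366 of the 172578 pairs of the whole map. After the bins 111380001 to 111410000 and pairs under 20 kb apart were left out, 21322 pairs remained. The middle bin of those left out was almost empty in both libraries, with 1 contact in ∆CTCF and 8 in ∆BorC1-4, and is called the boundary.

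CTCF is a DNA-binding protein that stops cohesin as it extrudes chromatin loops, and topologically associating domains are stretches whose sequences contact each other more than their neighbours. Pairs of CTCF sites give point-like loops on a contact map, and a single site can give a stripe. Sox9, whose product directs cartilage development, has a regulatory domain that reaches far into the gene desert between it and Kcnj2, an inward rectifier potassium channel gene. The series design asks what deletions of CTCF sites do to such domains, and the present step asks how far the domains on the 2 sides of the boundary are merged and which loops and stripes are left.

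Both libraries came from homozygous mutants made in G4 embryonic stem cells, with fore- and hindlimb buds of 3 to 8 embryos pooled per condition, cut with DpnII and captured over the locus. ∆BorC1, ∆BorC1-2, ∆BorC1-4 and ∆CTCF are called the deletion libraries. The labels state neither the positions of C1 to C4 nor whether ∆CTCF carries the deletions of ∆BorC1-4. It is therefore a step in the order of the labels, and other differences between the mutants cannot be told apart from it. The wildtype library and the remaining mutant were not analysed here. With a single library per genotype the comparison has no replicate check and no p-value. Intervals in brackets are 95% counting intervals, which take read pairs as independent and leave out differences between embryos. Flank pairs, both ends in 109010001 to 110600000 or both in 113350001 to 114880000, show how the 2 libraries differ where nothing was edited.

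The ∆CTCF map held 4449078 raw contacts and the ∆BorC1-4 map 9045698, a 2.03-fold difference. Of these, 24.7% and 24.5% were contacts at least 20 kb apart inside the interval. Bins of the interval took almost the same share of contacts in both libraries, with a median ratio of ∆CTCF to ∆BorC1-4 of 1.01 over 208 bins. The lowest ratio, 0.875, was at the bin 111300001 to 111310000, and the next, 0.900, at its right neighbour, 111310001 to 111320000. The highest was 1.09.

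Contact is given below as observed over expected, the balanced value divided by that library's own mean at the same distance, so that 1 is the average of the map. The interval was divided into the Kcnj2 side (from Kcnj2 to the boundary), the desert (from the boundary to Sox9) and the Sox9 to edge interval (from Sox9 to the domain edge at 113.03 Mb). Contact across the boundary, between the Kcnj2 side and the desert, was 1.48 [1.48 to 1.49] in ∆CTCF and 1.34 [1.33 to 1.34] in ∆BorC1-4, a ratio of 1.11 [1.10 to 1.12]. It was 1.24 in ∆BorC1 and 1.36 in ∆BorC1-2, so ∆CTCF was the highest of the deletion libraries. An earlier step was nearly as large, since ∆BorC1-2 stood 1.09 [1.08 to 1.10] times above ∆BorC1.

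None of the other 5 interval ratios was as far from 1. Contact within the Kcnj2 side had a ratio of 1.01, within the desert 0.966, and within the Sox9 to edge interval 1.01. Between the desert and the Sox9 to edge interval the ratio was 1.01, and between the Kcnj2 side and the Sox9 to edge interval 0.969. The flanks gave 0.992 on the left and 0.971 on the right, so ratios of this size occurred without an edit. Against ∆BorC1-2, the ratios within the Kcnj2 side, within the desert and from the Kcnj2 side to the Sox9 to edge interval fell on the other side of 1, at 0.992, 1.02 and 1.03.

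At matched distance the merging can be read against the desert itself. Pairs 100 to 200 kb apart that crossed the boundary had a mean contact of 0.913 in ∆CTCF, and pairs of the same distance within the desert 0.908. The ratio of these, 1.01 [0.981 to 1.03], included 1. In ∆BorC1-4 the same values were 0.832 and 0.927, a ratio of 0.897 [0.881 to 0.914]. Over the 5 distance classes up to 600 kb the ratio lay between 0.960 and 1.01 in ∆CTCF, and between 0.784 and 0.897 in ∆BorC1-4. It lay between 0.845 and 0.944 in ∆BorC1 and between 0.822 and 0.947 in ∆BorC1-2. In these classes ∆CTCF was above the other deletion libraries in every one, and crossing pairs were nearly as frequent as pairs within the desert.

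Farther apart, the separation was not gone. From 600 to 1200 kb the ratio fell in ∆CTCF to 0.804 at its lowest, and ∆BorC1-2 was above ∆CTCF in the classes from 600 to 700 kb (0.928 against 0.915), 700 to 800 kb (0.937 against 0.915) and 900 to 1000 kb (0.843 against 0.827). Over all 11 classes crossing pairs were 1.07 to 1.18 times as frequent in ∆CTCF as in ∆BorC1-4. Pairs within the desert were 0.922 to 0.998 times as frequent, so the lower desert level of ∆CTCF adds to its higher ratio.

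**Figure D1:**
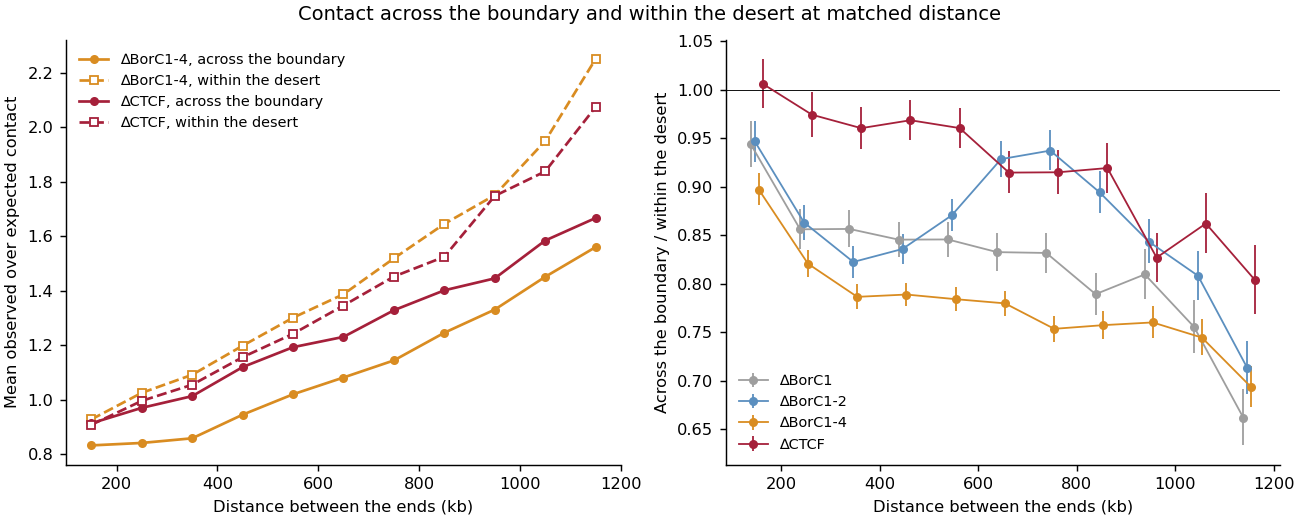
Left, mean observed over expected contact of pairs that cross the boundary (filled circles) and pairs within the desert (open squares) in 100 kb distance classes, for ∆BorC1-4 and ∆CTCF. Right, the ratio of the 2 in the 4 deletion libraries with 95% counting intervals; up to 600 kb ∆CTCF lies between 0.960 and 1.01 and ∆BorC1-4 between 0.784 and 0.897.

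To see where contact changed, the interval was divided into 50 kb bins, and pairs separated by 100 kb or more that held 100 contacts or more in each library were compared. All 820 pairs had enough contacts, with 142 in the poorest pair of ∆CTCF. With 1 library a group, a pair was counted as higher or lower where the log2 ratio of ∆CTCF to ∆BorC1-4 was past 0.5, a 1.41-fold difference. Of the 820 pairs, 12 were higher (1.46%) and 2 lower (0.244%). Of 800 flank pairs none was higher (0%) and none lower (0%). From ∆BorC1 to ∆BorC1-2, a pair of libraries that shares no sample with this one, 1 pair was higher (0.122%) and 2 lower (0.244%) inside, against 0% higher and 0.123% lower in the flanks. At a log2 ratio of 0.3, 82 pairs (10.0%) were higher and 18 (2.20%) lower in ∆CTCF, while 0.750% of flank pairs were higher and 2.38% lower. Higher pairs were thus more frequent inside than in the flanks at both sizes, and lower pairs at 0.3 were as frequent as in the flanks. The SD of the log2 ratios was 0.18 inside and 0.13 in each flank. The median counting error was 0.07 inside, 0.09 in the left flank and 0.08 in the right flank. Flank pairs thus pass a fixed size more easily by counting error, so similar shares of lower pairs do not show similar change.

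The higher pairs lay in 1 block of the map. All 12 had their left end in bins starting from 110.92 to 111.22 Mb and their right end in bins starting from 111.32 to 111.97 Mb. They therefore all spanned the bin at 111.31 Mb, which lies 390 kb to the right of the Kcnj2 bin and 70 kb to the left of the left-out bins. Of 238 pairs that spanned this bin from the Kcnj2 side, 12 were past 0.5 and 80 past 0.3. Of the remaining 582 pairs 0 were past 0.5 and 2 past 0.3, and both of these, 111.27 with 111.37 and with 111.42 Mb, have this bin in their left end. Among the 465 pairs with both ends right of the boundary the log2 ratio ran from -0.34 to 0.26, with a median of -0.03.

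The pairs with the largest ratios were chosen so that no 2 lay within 100 kb of each other at both ends. First was 111.12 with 111.42 Mb, 300 kb apart, at 1.21 in ∆CTCF and 0.806 in ∆BorC1-4, a log2 ratio of 0.58 [0.49 to 0.68]. ∆BorC1 had 0.845 there and ∆BorC1-2 0.855, so ∆CTCF stood above the other deletion libraries, which lay close together. The Kcnj2 bin with 111.67 Mb came next, at 1.87 in ∆CTCF against 1.37, 1.58 and 1.27 in ∆BorC1, ∆BorC1-2 and ∆BorC1-4. The pair 111.17 with 111.62 Mb had 1.17 in ∆CTCF against 0.875, 0.799 and 0.804. Then came the Kcnj2 bin with 111.97 Mb (2.20 in ∆CTCF, 1.68, 2.03 and 1.54 in the others in the same order) and with 111.82 Mb (2.03 against 1.37, 1.63 and 1.43). The remaining 5 were Kcnj2 with 111.52 and 111.37 Mb, 111.07 with 111.77, 111.12 with 111.97 and 111.27 with 111.37 Mb, with log2 ratios of 0.50, 0.48, 0.48, 0.40 and 0.39. In all 10, ∆CTCF was above each of the other deletion libraries, which picking pairs by their ratio to ∆BorC1-4 favours. Over all pairs, 3 were past 0.5 against ∆BorC1-2 and 14 against ∆BorC1. The bin that holds Kcnj2 was an end of 5 of the 10.

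Lower pairs were fewer and, at 0.3, no more frequent than in the flanks, where the counting error was larger. Of the 18 pairs below -0.3, 16 had an end in the 150 kb from 111.27 to 111.42 Mb, around and to the right of the bin at 111.31 Mb, as did 116 of all 820 pairs. Both of the 2 pairs below -0.5 joined the bin starting at 111.37 Mb to the Sox9 to edge interval. Neither held 200 contacts in both libraries. The pairs named here were spaced like the highest ones. The lowest was 111.37 with 112.72 Mb, to the right of Sox9, at 1.32 in ∆CTCF and 1.94 in ∆BorC1-4, a log2 ratio of -0.56 [-0.84 to -0.28]. It rests on 142 and 436 contacts, because 3 of the 5 bins of 10 kb in its left end were left out. ∆BorC1 had 1.90 there and ∆BorC1-2 1.56. Second among the spaced pairs was the Kcnj2 bin with 111.27 Mb, 350 kb apart and with 1172 and 3566 contacts. It had 1.18 against 1.62, a log2 ratio of -0.45 [-0.55 to -0.35], where ∆BorC1 had 1.58 and ∆BorC1-2 1.75. After it came 111.32 with 112.57 Mb, at 1.81 against 2.42, with 2.01 and 2.33 in ∆BorC1 and ∆BorC1-2. The other 7 lay between -0.36 and -0.27, and in 2 of the 10, 111.22 with 112.77 Mb and 111.32 with 112.22 Mb, ∆CTCF was within the range of the other deletion libraries.

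**Figure D2:**
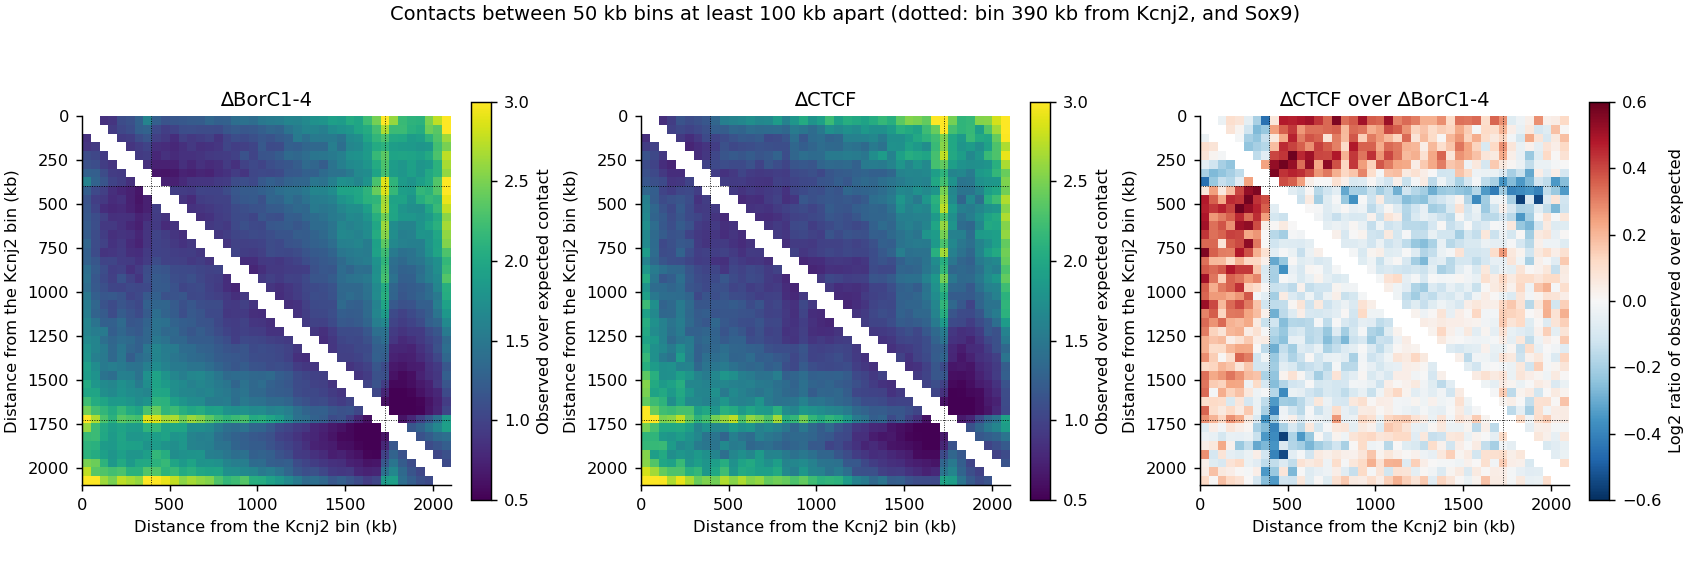
Observed over expected contact of 50 kb bins at least 100 kb apart in ∆BorC1-4 (left) and ∆CTCF (middle), and the log2 ratio of ∆CTCF over ∆BorC1-4 (right); both axes give the distance from the Kcnj2 bin in kb. A red block of higher pairs joins the 390 kb next to Kcnj2 with the sequence right of it, and blue pairs of lower contact start from the stretch between 350 and 500 kb.

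The bin at 111.31 Mb was therefore used to divide the Kcnj2 side into a part of 400 kb next to Kcnj2, from 110.92 to 111.32 Mb, and a part of 60 kb next to the boundary, from 111.32 to 111.38 Mb. This division was chosen with the results in view and describes them. The 2 parts contacted each other at 1.07 [1.05 to 1.09] in ∆CTCF and 0.861 [0.848 to 0.874] in ∆BorC1-4, a ratio of 1.24 [1.21 to 1.27]. The level was 0.888 in ∆BorC1 and 0.878 in ∆BorC1-2, so the other deletion libraries lay close together. Among the rearranged libraries it was 0.972 in BorKnockIn, 0.866 in InvC, 1.04 in InvIntra and 0.828 in InvC∆Bor. ∆CTCF was the highest of the 8 libraries, but its counting interval overlapped that of InvIntra, whose boundary bin had 28151 contacts. Distances in the rearranged libraries were taken from mm9 coordinates and not adjusted for the rearrangement, so their values may not be directly comparable.

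In their contact with the desert the parts differed in opposite directions. The 400 kb next to Kcnj2 had 1.52 in ∆CTCF and 1.32 in ∆BorC1-4, a ratio of 1.15 [1.14 to 1.16], above ∆BorC1 with 1.24 and ∆BorC1-2 with 1.35. The 60 kb next to the boundary had 1.25 in ∆CTCF and 1.45 in ∆BorC1-4, a ratio of 0.865 [0.848 to 0.882], where ∆BorC1 had 1.28 and ∆BorC1-2 1.38. With the Sox9 to edge interval the part next to Kcnj2 had 2.21 and 2.22, a ratio of 0.993 [0.978 to 1.01]. The part next to the boundary had 1.87 in ∆CTCF against 2.30 in ∆BorC1-4, a ratio of 0.811 [0.779 to 0.845], with 2.24 in ∆BorC1 and 2.09 in ∆BorC1-2. Each part thus differs from the mean of the whole Kcnj2 side, whose ratio of 1.11 with the desert combines a higher and a lower value.

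The insulation score, the log2 of contact across a position within 200 kb on each side relative to the map's mean, shows the same places as dips, where low values mean few contacts across. In ∆BorC1-4 dips inside the interval lay at 110.93 Mb (-0.58), 111.32 Mb (-0.45), 111.82 Mb (-0.17), 112.65 Mb (-1.16) and 113.03 Mb (-1.52), which are Kcnj2, the bin at 111.31 Mb, a place in the desert, Sox9 and the domain edge. At 111.32 Mb ∆CTCF had -0.01, and ∆BorC1 and ∆BorC1-2 had -0.37 and -0.40. The lowest point between Kcnj2 and Sox9 in ∆CTCF was instead at 111.41 Mb, right of the boundary, with -0.31, where ∆BorC1-4 had -0.41 and ∆BorC1 and ∆BorC1-2 -0.37 and -0.38. A low score next to the boundary was thus present in all 4 deletion libraries, and it was 0.10 higher in ∆CTCF than in ∆BorC1-4. Differences at flank positions ran from -0.08 to 0.16, so a difference of this size also occurred where nothing was edited.

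The other dips of ∆CTCF were at Kcnj2 (-0.80), 111.16 Mb (-0.14), 111.82 Mb (-0.25), 112.04 Mb (-0.25), 112.39 Mb (-0.10), Sox9 (-1.21 at 112.64 Mb) and the edge (-1.47). At Kcnj2 the score was lower than in ∆BorC1-4 by 0.22, more than at any of 234 flank positions, where the difference of ∆CTCF minus ∆BorC1-4 ran from -0.08 to 0.16. ∆BorC1-2 had -0.70 at Kcnj2 and ∆BorC1 -0.55, so the order at that dip did not follow the order of the labels. At 112.04 Mb, ∆CTCF was between ∆BorC1-2 (-0.37) and ∆BorC1-4 (-0.14), with ∆BorC1 at -0.27. Of 211 positions in the interval, 14 were above the flank range, all from 111.24 to 111.37 Mb, and 23 below it.

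Over the interval as a whole the score was no flatter in ∆CTCF. Its SD over positions was 0.27 in both ∆CTCF and ∆BorC1-4, a difference of -0.01, against 0.25 in ∆BorC1 and 0.29 in ∆BorC1-2, because the dips at Kcnj2, Sox9 and the edge carry most of it. From 111.12 to 112.43 Mb, away from those dips, the SD was 0.09 in ∆CTCF and 0.12, 0.14 and 0.12 in ∆BorC1, ∆BorC1-2 and ∆BorC1-4. These borders were chosen after the values were seen.

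**Figure D3:**
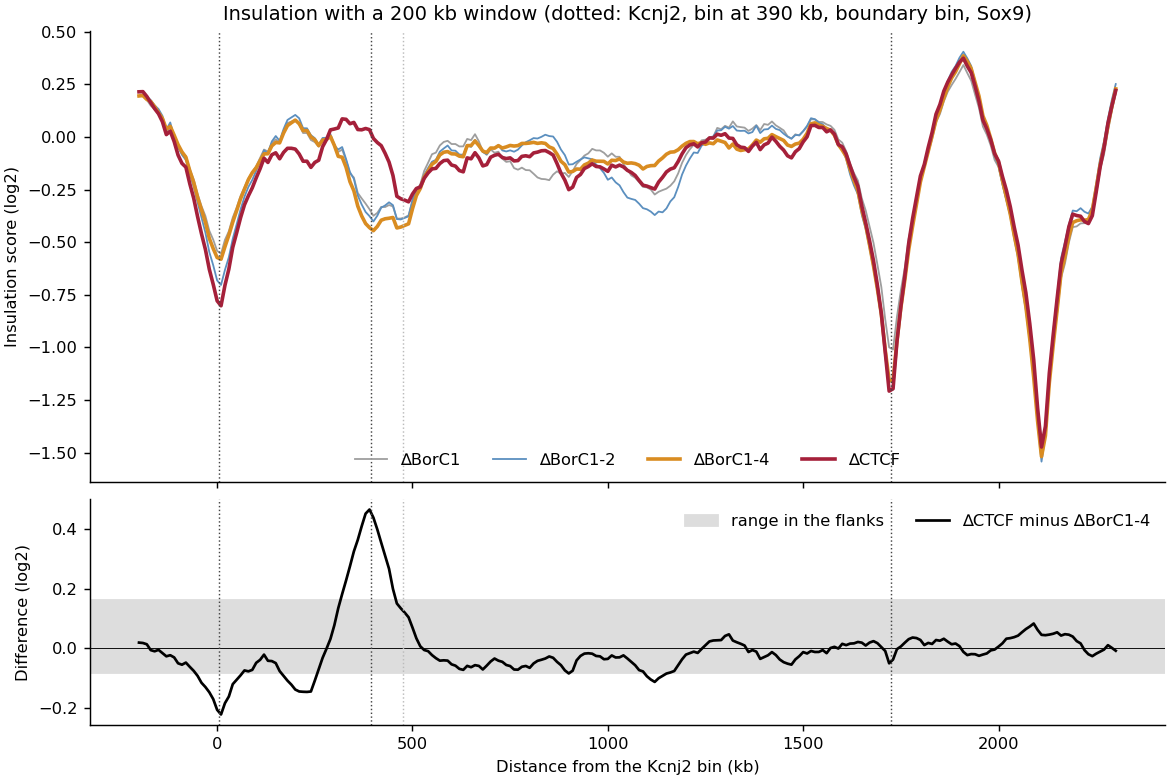
Top, insulation score (log2, 200 kb window) of the 4 deletion libraries against the distance from the Kcnj2 bin in kb; bottom, ∆CTCF minus ∆BorC1-4, with the range at flank positions (-0.08 to 0.16) in grey. Near 390 kb, where ∆BorC1-2 and ∆BorC1-4 have a dip, ∆CTCF is at -0.01, and its dip at Kcnj2 is deeper than in ∆BorC1-4. ∆BorC1 is also low near 390 kb (-0.37), with its dip at 460 kb (-0.39).

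For stripes, each 30 kb anchor was compared by its contact with the sequence 100 to 400 kb away on 1 side. Of 336 anchors and sides inside the interval, 21 differed by more than 0.3 on the log2 scale (6.25%), all of them higher in ∆CTCF, and 0% of 464 in the flanks. From ∆BorC1 to ∆BorC1-2 the shares were 0% inside and 0.216% in the flanks. Neighbouring anchors overlap, so the 21 fall into 2 runs. Anchors from 111.15 to 111.26 Mb were higher towards the right (12), and anchors from 111.34 to 111.45 Mb were higher towards the left (9). The runs face each other across the bin at 111.31 Mb and are the block of the 50 kb map seen from its 2 ends. No measured anchor outside these runs was past 0.3. Anchors were measured to the left only from 111.32 Mb and to the right only up to 112.62 Mb. The bin at 111.31 Mb facing left and Sox9 facing right were thus not covered. The measure is the mean contact of an anchor and not its excess over neighbouring anchors, so it does not call stripes.

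The anchor at 111.21 Mb facing right had 0.962 in ∆CTCF and 0.666 in ∆BorC1-4, a log2 ratio of 0.53 [0.44 to 0.62], with 0.725 in both ∆BorC1 and ∆BorC1-2. At 111.41 Mb facing left the values were 1.07 and 0.772, with 0.808 and 0.795 in the others. The anchors at 111.35 Mb to the left, 111.15 Mb to the right and 111.28 Mb to the right followed, with log2 ratios of 0.35, 0.33 and 0.27. In all 5 the 3 other deletion libraries lay below the average of the map and below ∆CTCF. Picking the anchors by their ratio to ∆BorC1-4 favours this order. The lowest anchor was 111.36 Mb facing right, at 0.863 against 0.961, a log2 ratio of -0.16 [-0.21 to -0.10], within the flank range of -0.16 to 0.20 for that side. The remaining 4 of the lowest 5 were 111.93, 111.79 and 110.92 Mb to the right and 112.12 Mb to the left, between -0.14 and -0.11.

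**Figure D4:**
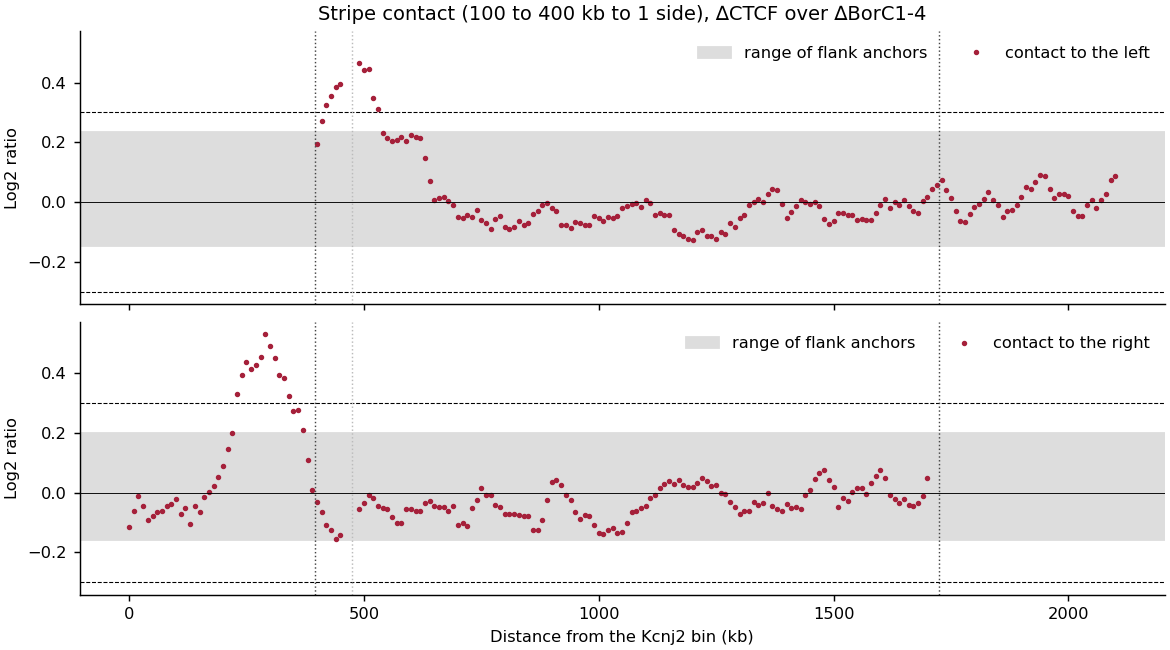
Log2 ratio of ∆CTCF over ∆BorC1-4 for the contact of each 30 kb anchor with the sequence 100 to 400 kb to its left (top) or right (bottom), by distance of the anchor from the Kcnj2 bin in kb. Grey is the range of flank anchors and dashed lines mark 0.3 and -0.3; points above 0.3 form 1 run in each panel, on the 2 sides of the dotted line at 390 kb.

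Loops were counted as local maxima of 3 by 3 bins of 10 kb with ends 100 kb or more apart and 30 or more contacts, 1.5 times the surrounding ring and 1.2 times the strips along both axes. Inside the interval there were 13 in ∆CTCF and 7 in ∆BorC1-4, beside 11 in ∆BorC1 and 16 in ∆BorC1-2. In the flanks the counts were 38 in ∆CTCF and 29 in ∆BorC1-4, so more loops were also called in ∆CTCF where nothing was edited. The count depends on the rule. On raw counts at equal depth, which are not balanced for bin coverage, it was 89 and 86. Loops lying within 20 kb of each other at both ends were taken as the same. On that basis 4 of the 7 of ∆BorC1-4, and 4 of the 13 of ∆CTCF, were in both libraries, against 23 of 29 and 23 of 38 in the flanks.

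All 4 shared loops were also called in ∆BorC1 and ∆BorC1-2, and each had an end at Sox9 or the edge. Kcnj2 with the edge (110.92 with 113.02 Mb) had 5.80 in ∆CTCF and 5.19 in ∆BorC1-4, with overlapping intervals and 382 and 697 contacts. Kcnj2 with Sox9 (110.93 with 112.63 Mb) had 5.40 and 4.30, a ratio of 1.26 [1.12 to 1.42], with 3.53 in ∆BorC1 and 4.99 in ∆BorC1-2. The desert at 111.83 Mb with the edge had 3.35 and 3.04, and Sox9 with the edge (112.65 with 113.01 Mb) 3.16 and 3.04. The loops of Kcnj2 with Sox9 and with the edge were thus still present in ∆CTCF and had the highest values of its 16 loop positions described here. Centred on the Kcnj2 and Sox9 bins themselves the ratio was 1.33, from 502 and 814 contacts, a size reached by 9 of 1156 flank squares of 30 kb that held at least 130 contacts in each library. Those squares are no like background in distance, since Kcnj2 and Sox9 lie 1720 kb apart and no flank is longer than 1590 kb.

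Loops of the bin at 111.31 Mb were called in ∆BorC1, ∆BorC1-2 and ∆BorC1-4 and not in ∆CTCF. With Sox9 (112.63 Mb) it had 3.40, 4.07 and 4.08 in those 3 libraries and 2.87 in ∆CTCF, a ratio to ∆BorC1-4 of 0.705 [0.591 to 0.841] from 194 and 675 contacts. With the edge (113.01 Mb) it had 4.45, 4.59 and 4.65 against 2.89, a ratio of 0.620 [0.509 to 0.756] from 140 and 509 contacts. Kcnj2 with the same bin, not a loop by the rule, had 1.68, 1.80 and 1.70 against 1.21, a ratio of 0.715 [0.630 to 0.811]. In the rearranged libraries, with distances in unadjusted mm9 coordinates, that pair had 2.04 (BorKnockIn), 1.64 (InvC), 2.12 (InvIntra) and 1.57 (InvC∆Bor). On that basis ∆CTCF was the lowest of the 8. None of the 1156 flank squares had a ratio as low as those of this bin with Sox9, the edge and Kcnj2. The lowest was 0.742. Flank squares were not matched to the named pairs in distance or contacts. The pair of this bin with the edge, 1700 kb apart, is longer than either flank. The bin at 111.31 Mb was chosen with the results in view, so this comparison describes its size and is not a test. Loop positions of the flanks ran from 0.394 to 2.23 over all 44, with as few as 19 contacts, and the 28 with at least 130 contacts in each library lay from -0.27 to 0.27 on the log2 scale. The same bin and its left neighbour had the lowest share of raw contacts in ∆CTCF relative to ∆BorC1-4, 0.900 and 0.875, and the part of this in the lower contact was not tested.

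Of the other loops called in ∆CTCF alone of the 2 libraries, Kcnj2 with the desert at 111.82 Mb differed most. It had 2.46 in ∆CTCF from 476 contacts and 1.58 in ∆BorC1-4 from 616, a ratio of 1.56 [1.38 to 1.76]. No flank square reached that ratio, whereas 3 of the 44 flank loop positions, none of them among the 28 with at least 130 contacts, did. The loop was picked as the one that differed most, so this describes it and is not a test. ∆BorC1-2 had 1.99, where it was also called, and ∆BorC1 1.41. The desert at 111.68 Mb with Sox9 had 3.36 against 2.64, and at 111.70 Mb with the edge 3.53 against 2.69, ratios of 1.27 and 1.32. In ∆BorC1 the latter had 3.65, above ∆CTCF. Just right of the boundary, 111.41 Mb had 3.47 against 3.02 with Sox9 and 3.89 against 3.28 with the edge, and ∆BorC1 and ∆BorC1-2 had between 3.20 and 3.95 at these loops. The remaining 4 were 111.16 Mb with the edge (3.85 against 3.26), 111.26 with Sox9 (2.90 against 2.63), 111.81 with Sox9 (3.23 against 2.78) and 112.39 with Sox9 (1.52 against 1.41). In ∆BorC1-4 alone of the 2 libraries, the loop of 112.02 Mb with the edge was called at 2.44, although ∆CTCF had 2.89 there.

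At 14 of the 16 loop positions ∆CTCF was thus above ∆BorC1-4, with a median ratio of 1.15 over all 16. The positions were those called in either library, 13 in ∆CTCF and 7 in ∆BorC1-4, which by itself favours ratios above 1. Flank positions were called less unevenly, 38 and 29, so they are not a like background. Over loop positions in the flanks the median was 1.03 for all 44, whose range of 0.394 to 2.23 holds all 16, and 1.00 for the 28 with at least 130 contacts, as all 16 had. The 2 that were lower are those of the bin at 111.31 Mb.

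**Figure D5:**
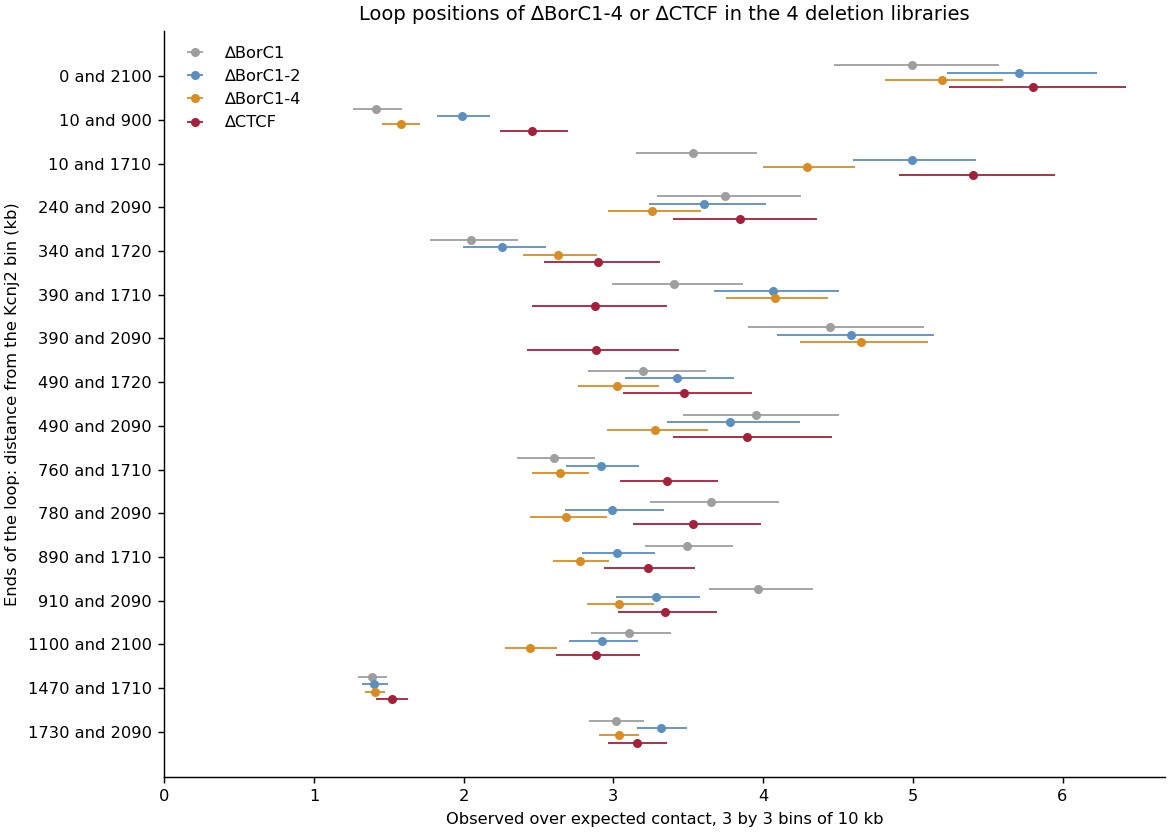
Observed over expected contact, with 95% counting intervals, at the 16 loop positions called in ∆BorC1-4 or ∆CTCF, in the 4 deletion libraries; each row gives the distances of the 2 ends from the Kcnj2 bin in kb. The 2 positions with an end at 390 kb are lower in ∆CTCF (2.87 and 2.89) than in the other 3 libraries (3.40 to 4.65), and the one at 10 and 900 kb is higher.

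From single places the same step reads as follows. The Kcnj2 bin and its neighbours contacted all 12 segments of 100 kb from 111.42 to 112.62 Mb more in ∆CTCF, by 1.18 to 1.45 times, most at 111.82 Mb (2.04 against 1.41). They contacted the segment from 111.22 Mb less, at 1.06 against 1.42, a ratio of 0.749 [0.701 to 0.801]. From Sox9, the segments from 110.92, 111.02 and 111.12 Mb were contacted 1.22, 1.19 and 1.16 times as often in ∆CTCF, and the segment from 111.22 Mb 0.862 times as often. In the desert 4 of 12 segments were higher from Sox9 with an interval above 1, and none lower. The bin at 111.31 Mb had higher contact with its left neighbourhood, by 1.46 [1.35 to 1.58] times with the segment from 111.22 Mb and 1.21 times with that from 111.12 Mb. With the desert it was lower, with an interval below 1, in 7 of 12 segments and higher in 1, at 111.42 Mb (1.09 [1.02 to 1.16]).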

How the data were processed

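Capture Hi-C maps of 8 mouse mutants, 1 library each, were used as deposited. The submitters' processing notes name Bowtie2 2.2.6, Juicer and the build mm9. Read filters are not stated in the labels. The authors deposited raw counts, the number of read pairs joining 2 bins of 10 kb. Balanced values (KR, per the deposited file names) are a signal the authors made from them, with 7 values in ∆BorC1-4 and 1 in ∆CTCF that were not a number.

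The expected value at a distance was the mean of the balanced values at that distance in the same library. Intervals come from the raw counts. Python 3.11.15, numpy 2.4.6 and scipy 1.17.1 were used, and the measures were tested on simulated maps. Kcnj2 and Sox9 were placed at 110920001 and 112640001 from general knowledge of mm9, with no mm9 annotation used. Squares of 3 by 3 bins at Kcnj2 and the edge include 1 bin outside the interval. Members, regions and measures were chosen with earlier results of these data known. Named were the places, the 10 highest and 10 lowest 50 kb pairs, the insulation dips with a prominence of at least 0.08, the loops, and the 5 highest and 5 lowest stripe anchors, spaced by a fixed rule. Alternatives were raw counts, other expected values, distances, thresholds, equal depth and the other comparators.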

Additional observations from a re-analysis of the deposited data

How the results depend on the processing

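Of 79 alternatives, 31 left the value within its counting interval or the count within 1.5 times, and 39 moved it. The other 9 turned the direction of a ratio whose main interval excluded 1. Turns within the Sox9 to edge interval and in the SD of insulation are counted as moved. The 31 include settings that could not alter the result: leaving out bins of unequal coverage, and a minimum of 50 contacts, which every pair passed. A minimum of 60 contacts for loops, which every called loop passed, was another. So was the 100 kb distance between the Kcnj2 side and the Sox9 to edge interval, whose pairs all lie farther apart. The cause of the changes was not tested. No flank is longer than 1590 kb, so pairs farther apart drop out wherever the expected values of the flanks are used. Contact across the boundary stayed above 1: 1.13 on raw counts, 1.19 with the expected values of the flanks, 1.09 against ∆BorC1-2 and 1.19 against ∆BorC1.

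The small interval ratios did not keep their side of 1. Within the Kcnj2 side the ratio was 1.04 on raw counts, 0.992 against ∆BorC1-2 and 0.995 for pairs at least 100 kb apart. From the Kcnj2 side to the Sox9 to edge interval it was 1.05 with the flanks' expected values, 1.03 against ∆BorC1-2 and 1.01 against ∆BorC1. The 1.05 covers only the nearer pairs, so it is not a change of setting on the same contacts. Within the desert it was 0.985 on raw counts, 0.987 with the flanks' expected values, 1.02 against ∆BorC1-2 and 1.02 against ∆BorC1. From the desert to the Sox9 to edge interval it was 0.992 on raw counts, 1.09 with the flanks' expected values, 1.02 against ∆BorC1-2 and 0.908 against ∆BorC1. Within the Sox9 to edge interval it was 0.982 on raw counts, 0.997 against ∆BorC1-2 and 1.04 against ∆BorC1. Leaving out bins of unequal coverage removed no further bin of the interval.

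Higher pairs numbered 25 on raw counts, 29 with the flanks' expected values, 3 against ∆BorC1-2, 0 with 100 kb bins, 82 past 0.3, 0 past 1 and 25 on raw counts at equal depth. Lower pairs numbered 4 on raw counts, 1 with the flanks' expected values, 1 against ∆BorC1-2, 0 with 100 kb bins, 18 past 0.3, 0 past 1, 0 with at least 200 contacts and 6 on raw counts at equal depth. The difference in the SD of insulation was 0.0082 with a 100 kb window, -0.031 on raw counts, -0.020 against ∆BorC1-2 and 0.016 against ∆BorC1. Stripe anchors numbered 34 past 0.2. Loops numbered 22 in ∆CTCF and 11 in ∆BorC1-4 at 1.3 times the ring, 3 and 1 at 2 times, and 89 and 86 on raw counts at equal depth. Kcnj2 with Sox9 was 1.58 against ∆BorC1. No paired analysis was possible because each genotype has 1 library.

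For the bin at 111.31 Mb, over 6 settings of map values and comparator, the ratio with Kcnj2 ran from 0.593 to 0.721 and with Sox9 from 0.585 to 0.807. With the edge it ran from 0.539 to 0.639, but the flanks' expected values gave no value for that pair. The 6 include the setting for bins of unequal coverage, which equals the main value. These are single libraries, and depth limits most the pairs of ∆CTCF over 1 Mb apart.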
